A study of Mus musculus with 24 samples.

Results

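The 2 knock-in clones of mouse induced pluripotent stem (iPS) cells, N5 and N9, were compared between day 10 and day 25, which fell 5 and 20 days after doxycycline had been withdrawn. Both clones carry an inducible miR-203 (miR-203 tKI in the design text), and each had been given doxycycline for 5 days to switch the microRNA on for a short time. The comparison uses 4 libraries, 1 for each clone and day, which are 8 of the 24 deposited samples because each library was run on 2 lanes. They were chosen by their labels alone, as the libraries taken short and long after doxycycline. Wild-type iPS cells (WT) were sampled at the same 2 stages, with 1 library each, and the other 6 libraries are t=0, before doxycycline, and embryoid bodies at day 32. The labels give no strain, sex or age, and all cells were grown over feeder cells, the fibroblast layer on which iPS cells are often kept. Each of N5 and N9 is a single clone, so an n of 2 stands for 2 clones and not for independent cultures of either. The labels list WT among the cells sampled short and long after doxycycline. The design text gives day 10 and day 25 for the knock-in cells, and WT was taken as sampled on the same days. Every value is on the autosomes unless said otherwise.

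Methylation was read by whole-genome oxidative bisulfite sequencing, which oxidises 5-hydroxymethylcytosine first so that only 5-methylcytosine is read as methylated. A methylation level is the share of calls at CpGs that were methylated, in percent, and changes between levels are in percentage points. Mammalian CpG methylation is copied after replication by Dnmt1, recruited by Uhrf1, and is laid down afresh by Dnmt3a and Dnmt3b with the cofactor Dnmt3l. Where copying and new methylation fall short, methylation is lost over cell divisions, and Tet enzymes can also remove it by oxidation. Pluripotent cells are known to pass between states of high and low methylation, and CpG-rich promoters stay unmethylated in both. The microRNA is known for targeting the transcripts of Dnmt3a and Dnmt3b. Its 2 mature arms lie on chromosome 12 (RefSeq, GRCm38.p6, plus strand), at chr12:112130889-112130910 and chr12:112130927-112130948. They are shown because the knock-in expresses this microRNA, with the seed, bases 2 to 8, in capitals:
mmu-miR-203-5p: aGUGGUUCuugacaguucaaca
mmu-miR-203-3p: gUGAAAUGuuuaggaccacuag

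The 4 libraries held between 121786184 calls (N9, day 25) and 191210205 calls (N5, day 25), with a mean coverage of 5.80 to 9.12 per autosomal CpG. On mitochondrial DNA, taken as unmethylated, 0.156% to 0.526% of calls were methylated in them. The libraries also differed in other respects, and some of these moved with the day in both clones. By the flow cell codes in the titles, N5 at day 25 was sequenced on another flow cell than the other 3, whereas both N9 libraries share theirs. Coverage of chromosome 8 over the other autosomes was 1.10 in N5 at day 10, 1.35 in N9 at day 10, 1.39 in both at day 25 and at most 1.05 in WT. Coverage of the first 3000000 bp of chromosome Y over autosomes was 0.00129 and 9.00e-04 in N5 and N9 at day 10, and 0.01295 and 0.0109 at day 25. In WT it was 0.0019 at day 10 and 0.00156 at day 25, and in the clones at t=0 it was 0.0386 and 0.0402. Over the whole of chromosome Y the ratio was 0.0056 (N5) and 0.0047 (N9) at day 10, and 0.0064 and 0.0055 at day 25. The whole-chromosome ratio in WT was 0.0051 and then 0.005. Coverage of chromosome X over autosomes was 0.692 (N5) and 0.683 (N9) at day 10, and 0.598 and 0.614 at day 25. In WT the X ratio was 0.669 and then 0.676, and in the clones at t=0 it was 0.517 and 0.518. The part of these coverage differences in the methylation values was not tested. Among the markers of iPS cells, the gene end of Sox2 stood at 0.45% to 1.98% in the 4 libraries, that of Utf1 at 3.51% to 4.87% and that of Esrrb at 41.82% to 53.46%. Methylation does not show which cells expressed these genes.

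Between day 10 and day 25 both clones lost methylation on every autosome, while WT hardly moved. Over the 12526381 autosomal CpGs with a call in every library, N5 stood at 60.1% at day 10 and 48.6% at day 25. N9 stood at 60.9% and 47.9%. Both libraries of day 25 lie below both of day 10, and the clones differ from each other by less than the fall of either. WT stood at 61.4% at day 10 and 61.2% at day 25 (95% Wilson intervals 61.404 to 61.423 and 61.183 to 61.205, counting error only). The change was -11.5 points in N5 and -13.1 in N9, a mean of -12.3 ± 1.08 (SD, n = 2), against -0.219 in WT. At day 25 N5 had kept 80.8% of its day 10 level and N9 78.6%. With 2 libraries against 2, a two-sided exact permutation test cannot give p below 0.33, so the level itself carries no test. Fewer cells with methylated DNA and less methylation in each cell cannot be told apart in these bulk libraries.

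The loss had nearly the same size on each chromosome. Mean changes of the 19 autosomes ran from -11.9 points on chromosome 7 to -12.6 on chromosome 10, and in WT from -0.375 to -0.109. Chromosome 8, whose coverage differed between N5 at day 10 and the other libraries, changed by -11.7 (N5) and -13.1 points (N9), and without it the autosomal mean was -12.3. By class of CpG, the intergenic change was -11.8 points for N5 and -13.0 for N9, and CpGs in gene bodies by -11.5 and -14.1. CpG-poor gene ends (fewer than 60 CpGs within 1000 bp of the gene end) went from 38.7% to 30.6% in N5 and from 39.322% to 30.001% in N9. CpG-rich gene ends, already low at day 10, went from 4.23% to 3.08% and from 4.72% to 3.11%. In WT these 4 classes changed by -0.147, -0.184, -0.222 and -0.157 points.

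**Figure D1:**
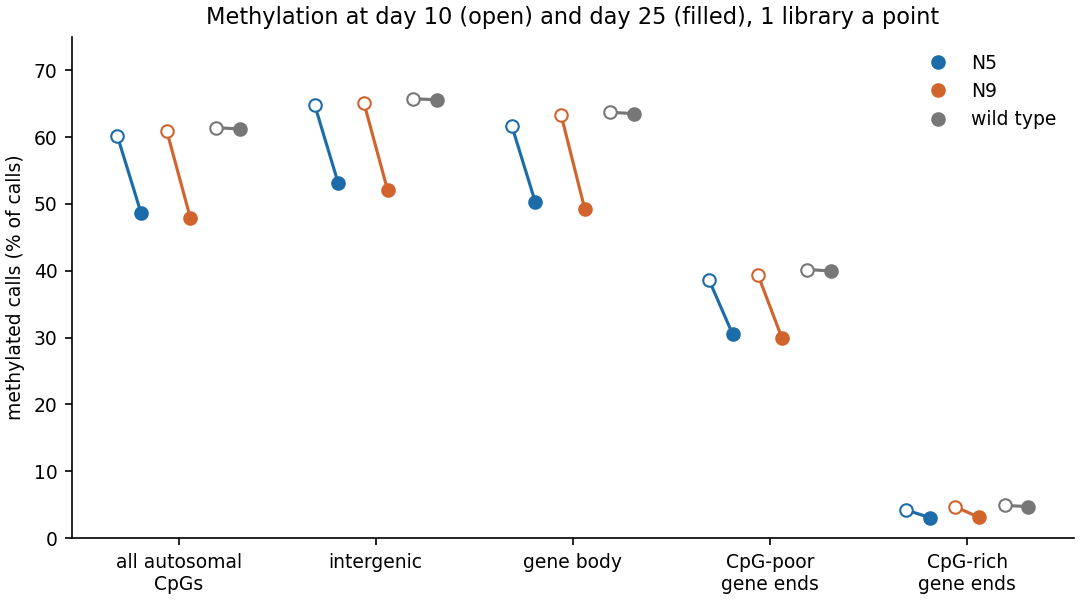
Methylation level (percent of calls) of all autosomal CpGs and of 4 classes at day 10 (open) and day 25 (filled), joined for N5, N9 and WT, each point 1 library. Both clones fall in each class while the WT lines stay nearly flat, and the CpG-rich gene ends lie near the axis throughout.

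The 2 clones did not lose methylation in the same proportions. In CpGs with 10 to 19 CpGs per 500 bp, the change was -9.41 points for N5 and -12.8 for N9. With fewer than 10 per 500 bp the changes were -11.8 and -13.8, and with 20 or more they were -1.18 and -1.76. Among tiles of 10 kb that stood at 60% or more at t=0, those with under 50 CpGs changed by a median of -12.15 points in N5 and -12.5 in N9. Those with 200 or more CpGs changed by -10.1 and -14.3. Among these tiles the shortfall of N5 was thus small in sparse tiles and larger in dense ones. In points the classes of single CpGs did not follow this, the clones being closest at 20 or more per 500 bp. Of their day 10 level, the classes from sparse to dense kept 82.3%, 82.3% and 79.2% in N5. In N9 they kept 79.6%, 76.8% and 70.8%. The clones differed at both days: with 10 to 19 CpGs per 500 bp, N5 stood at 53.1% and N9 at 55.1% at day 10. At day 25 they stood at 43.7% and 42.3%. N5 at day 25 is also the library on the other flow cell, and the part of the flow cell in this pattern was not tested.

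The loss was measured across the genome in 233969 autosomal tiles of 10 kb with at least 30 calls in every library. By edgeR's quasi-likelihood test on methylated and unmethylated calls, with a Benjamini-Hochberg adjusted p under 0.05, 205323 tiles (87.8%) were lower at day 25 than at day 10 and 6 (0.00256%) were higher. In 227343 tiles (97.17%) both clones were lower at day 25, and 197 tiles were higher in both. In WT 51.98% of tiles were lower, and no tile passed the WT test by edgeR, with 4708 lower and 3647 higher at an unadjusted p under 0.05. The median change of a tile was -11.35 points in N5 (5th to 95th percentile -19.3 to -3.22) and -12.85 in N9 (-21.7 to -3.51). In WT it was -0.21 (-8.04 to 7.46). The 28640 tiles that did not pass had a median change of -6.43 points and a median of 147 calls in their shallowest clone library, against 425 in tiles that fell. With each of the 4 libraries left out in turn, between 173049 and 174824 tiles were lower, and limma on logit levels called 198388.

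**Figure D2:**
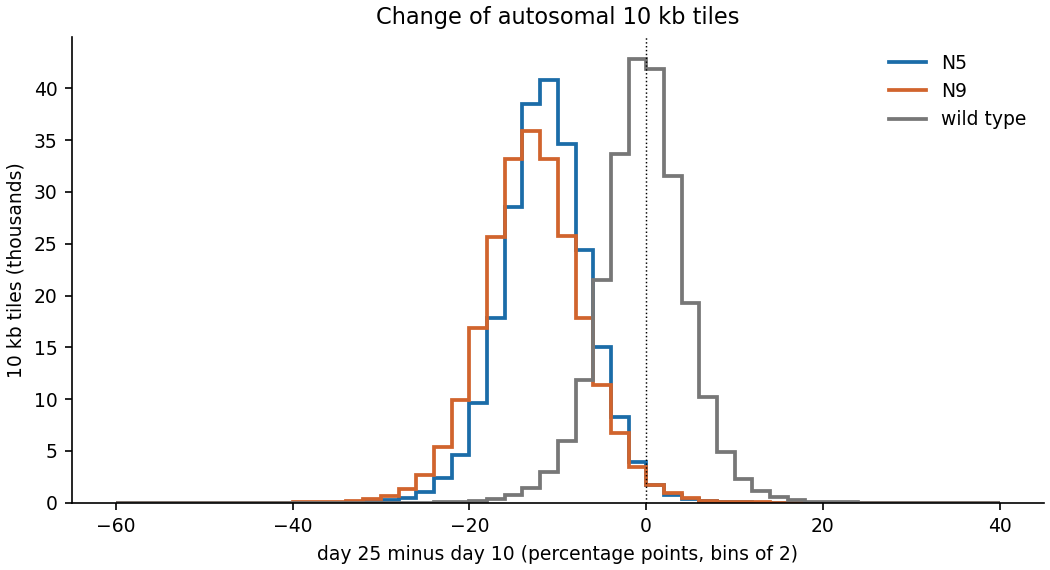
Number of autosomal 10 kb tiles by their change from day 10 to day 25 in bins of 2 percentage points, for N5, N9 and WT. The curves of the clones peak below -10 points and that of WT is centred near 0.

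The tiles that moved most were shallow ones. The largest fall among tiles that passed, and in which N5 and N9 agreed in direction, lay on chromosome 4 (70870001 to 70880000, mm10), nearest to Megf9. It stood at 73.8% and 67.3% at day 10 and at 36.4% and 27.9% at day 25, with 42 to 61 calls a library (adjusted p = 1.2e-04, edgeR). The next falls lay nearest to Nmbr, Olfr142, Epha6 and Adcyap1 and had mean changes of -37.6 to -35.1 points, on 31 to 103 calls a library. Among the 5 rises named, a tile overlapping Gm40847 on chromosome 12 (19040001 to 19050000) went from 15.6% to 55.2% in N5 and from 42.1% to 60.6% in N9 (adjusted p = 0.0375). The others lay nearest to Gm51483, Samd9l, B020011L13Rik and Gm17019 and rose by 7.4 to 14.8 points, with adjusted p of 0.0345 to 0.0498. The tiles named here hold few calls and differ widely between libraries, and with a minimum of 100 calls in every library 1 tile was higher.

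At a scale of 1 Mb nearly every bin was lower. Of 2370 autosomal bins, 2369 were lower in both clones, with medians of -11.6 points in N5 and -12.7 in N9 and of -0.31 in WT. The exception was the bin from 39 Mb on chromosome 17, at 5.11% and 8.73% in N5 and 5.44% and 3.5% in N9. A single tile of it (39840001 to 39850000), with levels of 0.68% to 1.44% in the 4 libraries, supplied most of its 127097 to 228039 calls. Without that tile, a choice made after the value was seen, the bin went from 66.4% to 57.9% in N5 and from 66.9% to 57.3% in N9. Across bins the changes of the 2 clones correlated weakly (Pearson r = 0.232 over bins, 0.099 over tiles), a description over regions of the same 4 libraries that share depth and base composition. Bins ranked by the fall of N9 had medians in N9 of -14.2 points in the 237 bins that fell most and -11.0 in the 237 that fell least, and in N5 of -11.8 and -11.0.

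Tiles were lower at day 25 at all starting levels, and the share they kept rose with that level. Tiles at 10% or less at t=0 went from a median of 6.81% to 4.53% in N5 and from 7.23% to 4.78% in N9, keeping 66.2% and 66.1%. Tiles between 70% and 80%, the largest class with 129675 tiles, went from 70.8% to 58.8% and from 70.7% to 57.5%, keeping 83.2% and 81.4%. The 227 tiles above 90% kept 90.2% and 88.8%. In WT the 10 classes of starting level kept 97.4% to 99.9%. In points, the largest median changes were those of tiles between 70% and 80% in N5, at -11.85, and between 60% and 70% in N9, at -13.3.

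**Figure D3:**
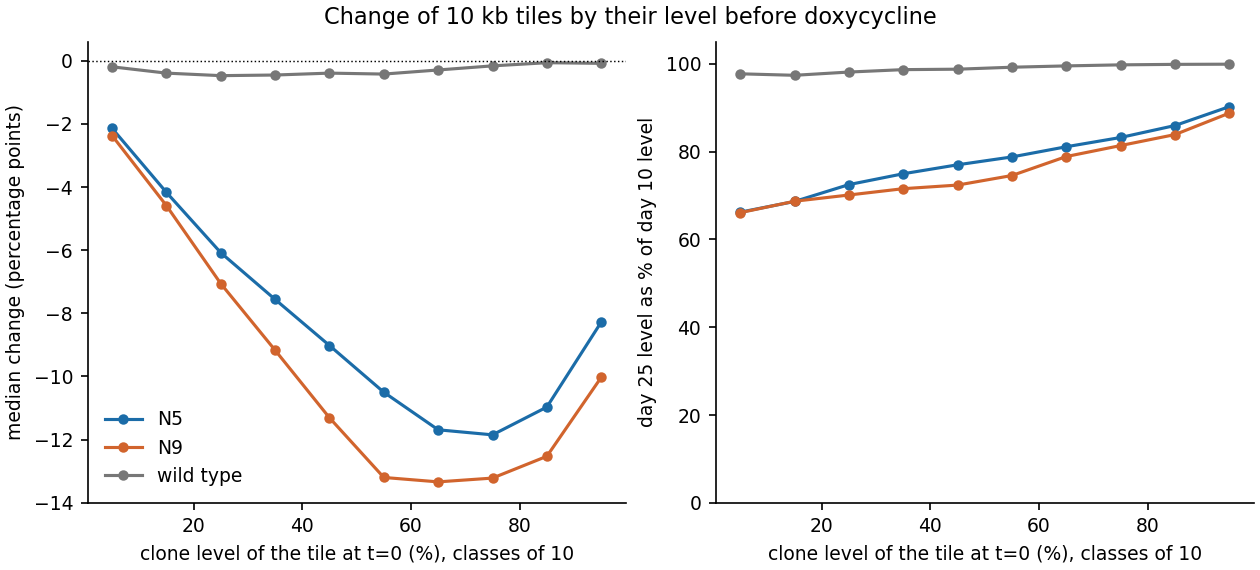
Left, median change of 10 kb tiles (percentage points) by their mean level in the clones at t=0, and right, the day 25 level as percent of the day 10 level, for N5, N9 and WT. The share kept climbs from 66.2% to 90.2% in N5 and from 66.1% to 88.8% in N9.

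Single CpGs moved away from full methylation. The 995765 autosomal CpGs with at least 10 calls in each of the 6 libraries were thinned to 10 calls each. Those with all 10 calls methylated were 5.7% in N5 and 5.64% in N9 at day 10, and 1.3% and 1.13% at day 25. Those with 4 to 6 of 10 methylated went from 27.9% to 40.7% and from 28.8% to 41.5%. CpGs with no methylated call went from 7.66% to 9.39% and from 6.82% to 9.73%. More CpGs entered the intermediate class than the unmethylated one. In WT the fully methylated share was 6.24% at day 10 and 6.11% at day 25.

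Around start sites the loss followed the shape that methylation already had. In the 250 bp before 9113 CpG-rich start sites, N5 went from 0.632% to 0.492% and N9 from 0.751% to 0.507%. In the bin 4000 to 3750 bp before the start, they went from 50.78% to 39.98% and from 52.5% to 39.1%. At 7349 CpG-poor start sites the same 250 bp went from 23.0% to 17.8% in N5 and from 23.0% to 17.3% in N9. In WT they stood at 23.9% at day 10 and 23.6% at day 25.

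**Figure D4:**
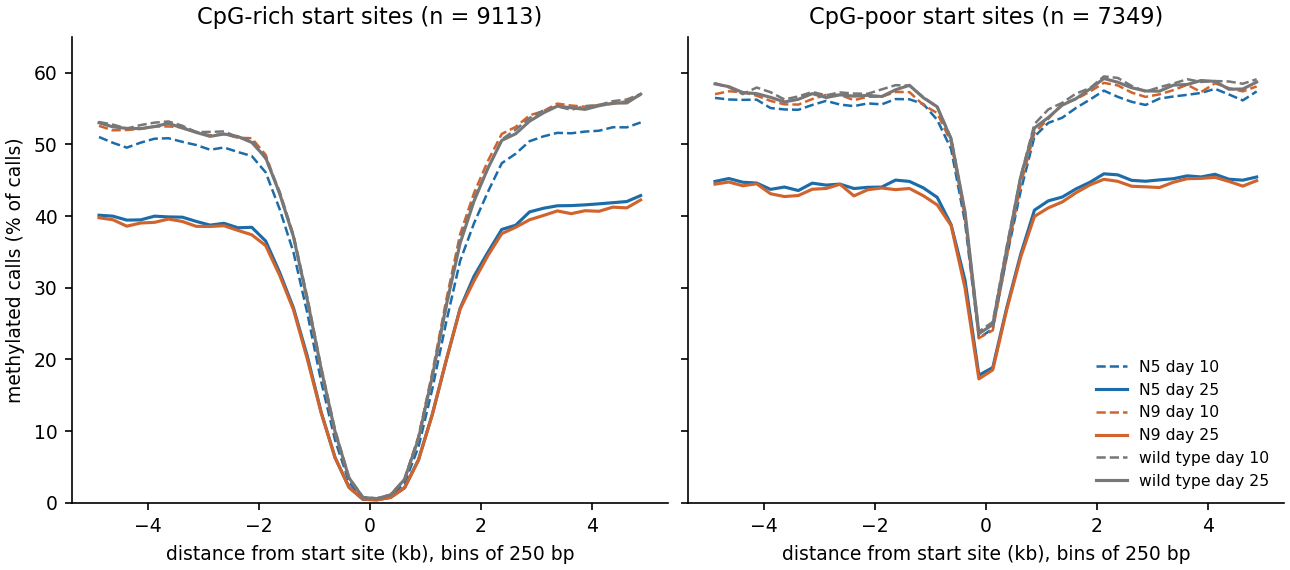
Methylation level (percent of calls) in bins of 250 bp by distance from the start site (kb), for CpG-rich and CpG-poor start sites, with day 10 dashed and day 25 solid. The solid lines of N5 and N9 run below the dashed ones on both sides of the start, and the 2 WT lines overlap.

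Whether the clones fell more than WT did was tested as the difference of the 2 changes. Of the 233969 tiles, 69912 (29.9%) fell more in the clones than in WT and 15 (0.00641%) moved the other way (edgeR). WT has 1 library a stage, and in the tiles called lower WT had risen by a median of 2.97 points while the clones changed by -14.07. The count therefore holds tiles picked partly for a rise in WT. Without N9 at day 25 the tiles that differed in either direction were 28616, and without N9 at day 10 they were 45422. Limma called 0, with 97864 at an unadjusted p under 0.05, and of 47510 tiles of 50 kb edgeR called 42317. With no replicate in WT, its spread in this test is borrowed from the clones, so these counts do not measure how WT cultures vary. Of the 15 in the other direction, the tile nearest to Mmadhc on chromosome 2 (50680001 to 50690000) stood at 23.0% and 23.0% at day 10 and 22.8% and 26.2% at day 25. WT changed there by -26.6 points (adjusted p for the difference = 0.0141). The WT level was lower at day 25 in all 15, by changes of -3.73 to -38.24 points.

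Genes were followed at whichever of their ends has more CpGs, in a window reaching 1000 bp to each side. The gene table gives no strand, so such a window is named a gene end and not a promoter. In 12102 of the 19554 autosomal windows a RefSeq start site lies inside. Of the 19554 gene ends, 1734 (8.87%) were lower at day 25 and 3 (0.0153%) were higher (edgeR, adjusted p under 0.05). All 1734 fell in both clones, and their median change was -17.2 points against -0.23 in WT. Most ends did not pass: the median change over all ends was -2.37 points, 69.6% of ends were lower in both clones, and 51.9% were lower in WT. No end passed between the WT libraries by edgeR, with 492 lower and 382 higher at an unadjusted p under 0.05, but 1 library against 1 gives little power and does not show that WT was unchanged. CpG-poor ends made up 1258 of those that fell, or 14.1% of the CpG-poor ends tested, and CpG-rich ends 476, or 4.5%. Of ends at 80% or more at t=0, 20.0% fell, and of those under 5%, 3.4%. The difference from WT passed for 1 end (0.00511%), Crnn, which encodes the epidermal protein cornulin (3, 93148818 to 93150818). Its window holds only 9 CpGs, under the 20 asked of ends named as the largest falls or rises. It stood at 83.0% and 86.8% at day 10 and at 64.1% and 56.2% at day 25, while WT went from 56.8% to 88.4% (adjusted p = 0.0223). When each clone was compared with itself (a block for clone), 2 ends differed from WT.

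Which single ends passed depended on the libraries and on the test. Without N5 at day 10 there were 921 lower ends, without N9 at day 10 232, without N5 at day 25 218 and without N9 at day 25 146. Limma on logit levels called 40 lower and 2 higher. The median autosomal end changed by -0.68 in log2 odds, and after each library was centred on its median end, limma called 0 lower and 1 higher, with 776 lower and 470 higher at an unadjusted p under 0.05. Since limma without centring already called only 40, this does not show whether the ends called by edgeR fell more than the median end. Of the 50 ends named by the rule that passed, Irf7, Misp, Spz1, Stn1 and Tcl1 kept their call in edgeR whichever of the 4 libraries was left out. By limma none of the 50 passed, these 5 having adjusted p of 0.0686 to 0.101, and with a flow cell term beside the clone block 31 of the 50 passed in edgeR. Another 6 kept it in 3 of the 4 cases, 8 in 2, 17 in 1 and 14 in none. 

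Of 27 measured genes of core and naive pluripotency, 5 fell (18.5%, against 8.87% of all ends, a difference that was not tested) and 0 rose, and 21 were lower in both clones. The list's median change was -1.54 points, against -2.37 over all ends. Nanog, a homeobox factor of the naive state (6, 122706489 to 122708489), went from 11.8% to 3.04% in N5 and from 9.17% to 0.79% in N9. Both day 25 libraries lie below both of day 10, and WT stood at 16.1% and 12.2%. The change was -8.57 points (adjusted p = 0.00359, and 0.0616 without N9 at day 25). Zfp42, which encodes the naive marker Rex1 (8, 43306009 to 43308009), went from 16.1% to 3.43% in N5 and from 13.1% to 5.67% in N9 (adjusted p = 0.00781, and 0.0914 without N5 at day 25). Tcl1, which encodes an Akt coactivator (12, 105221737 to 105223737), went from 14.4% to 4.41% and from 17.6% to 4.56% (adjusted p = 0.00391). WT was lower at the later stage there too, at 34.7% and 14.9%. Dppa4, a chromatin-associated gene, went from 20.1% to 5.56% and from 8.37% to 1.21% (adjusted p = 0.0177, and 0.205 without N5 at day 10). Its 2 day 10 libraries differ from each other by more than N9 fell. Dppa3, which encodes the maternal factor Stella, went from 16.6% to 7.6% and from 10.3% to 3.42% (adjusted p = 0.0371, and 0.236 without N5 at day 10). Pou5f1 (Oct4) stood at 27.2% and 28.3% at day 10 and 27.1% and 20.5% at day 25, and Sox2 at 0.89% and 0.45% and then 1.15% and 1.98%; neither passed (adjusted p = 0.542 and 0.134). Of 12 genes of primed and formative pluripotency 0 passed by edgeR, with 3 lower at an unadjusted p under 0.05.

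The start regions of 3 of these genes and of a germline gene show how few CpGs carry a value. Each run below is RefSeq sequence (GRCm38.p6) from 250 bases before to 50 after a start site, 5′ to 3′, with every CpG in capitals. Nanog lies at chr6:122707239-122707538 on the plus strand, Zfp42 at chr8:43306960-43307259 on the minus strand, Tex12 at chr9:50561219-50561518 on the minus strand and Sox2 at chr3:34649745-34650044 on the plus strand:
Nanog: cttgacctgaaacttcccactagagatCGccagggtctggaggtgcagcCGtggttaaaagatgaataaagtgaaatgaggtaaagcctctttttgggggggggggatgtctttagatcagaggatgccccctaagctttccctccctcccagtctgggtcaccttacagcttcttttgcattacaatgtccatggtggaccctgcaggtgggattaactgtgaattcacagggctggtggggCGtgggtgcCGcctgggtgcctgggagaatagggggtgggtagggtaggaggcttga
Zfp42: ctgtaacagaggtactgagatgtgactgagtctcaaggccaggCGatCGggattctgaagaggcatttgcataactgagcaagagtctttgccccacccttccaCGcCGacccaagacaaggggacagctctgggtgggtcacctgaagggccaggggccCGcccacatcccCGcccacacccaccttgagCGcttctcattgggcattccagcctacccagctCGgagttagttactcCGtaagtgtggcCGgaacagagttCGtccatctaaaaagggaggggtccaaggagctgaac
Tex12: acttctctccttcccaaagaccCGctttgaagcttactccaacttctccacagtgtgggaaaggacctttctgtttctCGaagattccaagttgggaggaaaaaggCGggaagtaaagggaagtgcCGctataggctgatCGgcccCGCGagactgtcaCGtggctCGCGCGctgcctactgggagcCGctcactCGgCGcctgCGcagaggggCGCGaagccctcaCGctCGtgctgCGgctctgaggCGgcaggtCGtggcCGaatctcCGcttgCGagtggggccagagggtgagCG
Sox2: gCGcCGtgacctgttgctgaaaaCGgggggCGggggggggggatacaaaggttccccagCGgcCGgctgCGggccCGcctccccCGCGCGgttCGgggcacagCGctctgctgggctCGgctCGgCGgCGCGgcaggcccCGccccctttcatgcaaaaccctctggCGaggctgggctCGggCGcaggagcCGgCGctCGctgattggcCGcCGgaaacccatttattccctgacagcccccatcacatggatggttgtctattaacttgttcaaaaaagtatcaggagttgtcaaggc
The Nanog run holds 4 CpGs, at which 2 of 15 calls were methylated in N5 and 2 of 32 in N9 at day 10. At day 25 there were 0 of 55 and 0 of 59, which allow levels of up to 5.45% and 5.08%. The 11 CpGs of Zfp42 stood at 13.1% and 6.32% at day 10 and at 2.17% and 7.58% at day 25, so within these 300 bases N9 was not lower. The 26 CpGs of Tex12, a dense run, stood at 34.55% (38 of 110 calls) and 32.3% (42 of 130) at day 10 and at 17.2% (55 of 319) and 14.0% (28 of 200) at day 25. In WT they stood at 32.05% and 41.2%. The 27 CpGs of Sox2 had 0 methylated of 194 and 0 of 166 calls at day 10, and 0 of 284 and 1 of 120 at day 25, and stayed unmethylated at this depth, where 0 of 194 allows up to 1.55%.

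Of 20 genes for DNA methyltransferases and their partners 2 fell (10.0%, against 8.87% of all ends) and 0 rose, with a median change of -1.62 points. Zfp57, whose zinc finger protein guards imprints (17, 37009729 to 37011729), went from 27.5% to 15.3% in N5 and from 38.97% to 9.68% in N9 (adjusted p = 0.00675, and 0.0875 without N9 at day 10). WT stood at 34.8% and 37.7%. The window of Zfp57 does not hold its start site, and in the window that does the adjusted p was 0.0775 (edgeR). In windows placed on the start site, 0 of 15 genes of this list fell, against 8.1% of all such windows. Nlrp14, an oocyte gene on the list, went from 76.7% to 50.3% and from 72.9% to 63.3% (adjusted p = 0.0452, and 0.336 without N5 at day 25). Dnmt1, the maintenance enzyme, stood at 69.9% and 73.8% at day 10 and at 60.3% and 53.2% at day 25, in a window outside its start site (adjusted p = 0.0675). Dnmt3a stood at 62.61% ± 0.81 and then at 50.80% ± 1.13 (SD, n = 2 clones), and edgeR gave an adjusted p of 0.126 in a window also outside its start site. Dnmt3l stood at 48.1% and 55.6% and then at 41.3% and 40.2% (adjusted p = 0.168), and WT went from 51.67% to 40.57%, a change of -11.1 points against -11.13 in the clones. The 2 days do not overlap at these 3 genes, yet none passed. Dnmt3b, at 3.45% and 4.46% and then 1.98% and 2.24%, and Uhrf1, with means of 1.72% and then 1.63%, did not pass (adjusted p = 0.155 and 0.96). Of 13 Tet and base excision genes 1 fell. It was Ung, the uracil glycosylase gene, at 1.32% and 6.65% and then 0.56% and 0.09% (adjusted p = 0.00491, and 0.174 without N9 at day 10). Tet1 and Tet2 stood between 0.45% and 2.31% in the 4 libraries and did not pass (adjusted p = 0.21 and 0.258). Mir203 (12, 112129955 to 112131955) stood at 7.31% and 9.46% at day 10 and at 7.05% and 5.01% at day 25 (adjusted p = 0.373). That window is the native locus, and the knock-in construct was not analysed here.

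Many germline genes are silenced by promoter methylation outside the germ line. Of 41 measured, 10 fell and 0 rose, a share of 24.4% against 8.87% over all ends, a difference that was not tested, and 34 were lower in both clones. The median change was -10.3 points, and the median day 10 level was 33.8% against 8.47% over all ends. The list's median level at t=0 was 43.6%, and among all ends between 40% and 60% at t=0 a share of 14.6% fell. Syce3, which encodes a synaptonemal complex protein (15, 89409503 to 89411503), went from 69.06% to 40.95% in N5 and from 66.7% to 36.7% in N9 (adjusted p = 0.00604, and 0.0565 without N9 at day 25). WT stood at 60.9% and 59.8%. Tex12, another synaptonemal complex gene, went from 45.2% to 22.5% and from 41.03% to 19.91% (adjusted p = 0.011, and 0.08 without N9 at day 25), and WT stood at 43.8% and 47.4%. Rpl10l, a testis copy of a ribosomal protein gene, went from 23.7% to 8.65% and from 24.5% to 10.9% (adjusted p = 0.0151, and 0.112 without N5 at day 25). For each of these 3 genes, picked for a low p in the same test, both clones fell by similar amounts and the days do not overlap. The others that fell, named because they passed, were Zfp42, Tex19.1, Asz1, Tdrd1, Rec8, Dmrtb1 and Dmc1, with changes of -22.63 to -4.28 points, and each of the 7 lost its call without at least 1 of the 4 libraries. In windows placed on the start site, 11 of 36 germline genes fell, against 8.1% of all such windows.

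Among genes of the 2-cell-like state, an early embryonic program that some pluripotent cells enter, 14 of 24 matched genes could be measured. Of these 2 fell (14.3%, against 8.87% of all ends), and the median change was -12.2 points. The list's median level at t=0 was 76.5%, and among all ends between 60% and 80% at t=0 a share of 15.8% fell. Spz1, which encodes a transcription factor of the testis, went from 87.16% to 64.97% and from 84.9% to 64.8% (adjusted p = 0.00675), against 84.1% and 81.0% in WT. Pramel6 went from 65.6% to 38.3% and from 61.8% to 36.7% (adjusted p = 0.0149, and 0.0806 without N9 at day 25); its family has near-identical copies, so its reads may be shared. Imprinted genes carry methylation on the allele from a single parent. Of 29 maternally methylated genes 2 fell (6.9%, against 8.87% of all ends), with a median change of -3.57 points. The windows were placed by CpG count and not on the imprinted regions, and the list's median level at day 10 was 13.85%. Airn, the non-coding transcript of the Igf2r domain (17, 12740311 to 12742311), went from 32.65% to 16.7% in N5 and from 32.1% to 18.4% in N9 (adjusted p = 0.0292). With each of the 4 libraries left out in turn, its adjusted p was 0.075 to 0.141. Gnas went from 4.42% to 2.67% and from 8.29% to 1.25% (adjusted p = 0.0251, and 0.211 without N9 at day 10). WT changed by -4.25 points there against -4.39 in the clones, from 9.73% to 5.47%. Of 11 paternally methylated genes 0 passed by edgeR, against 8.87% of all ends, and 0 had an unadjusted p under 0.05. Their median change was still -5.39 points, with medians of -0.65 in N5 and -4.57 in N9, and 5 were lower in both clones. H19, a gene of this list, stood at 79.0% and 70.5% and then at 64.7% and 65.9%, while WT stood at 42.3% and 33.7%.

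Of 39 Hox genes, which pattern the body axis, 6 fell (15.4%, against 8.87% of all ends), with a median change of -1.83 points from a median of 4.51% at day 10. The others that fell, Hoxa9, Hoxb3, Hoxc4, Hoxc9 and Hoxd4, had mean changes of -18.13 to -3.47 points, and each lost its call in at least 3 of the 4 cases with a library left out. Hoxb6 went from 13.0% to 5.02% and from 13.9% to 5.9% (adjusted p = 0.018, and 0.116 without N5 at day 25). In windows placed on the start site, 1 of 22 Hox genes fell (4.5%, against 8.1% of all such windows). Of 59 other homeobox genes 1 fell, with a median of -1.02 points. It was Pax9, which went from 6.29% to 1.88% and from 6.14% to 3.04% (adjusted p = 0.0356, and 0.239 without N5 at day 25). Against the 8.87% of all ends that fell, the counts for lineage genes were 1 of 17 for neuroectoderm, 3 of 25 for mesoderm and heart, 1 of 22 for endoderm and liver, 2 of 19 for blood and 3 of 18 for trophoblast. Their median changes were -1.05, -5.8, -4.43, -5.33 and -3.2 points. Nppb, which encodes a natriuretic peptide of the heart, changed by -16.39 points (adjusted p = 0.00863, and up to 0.073 with a library left out). Tat, a liver enzyme gene, changed by -18.77 points (adjusted p = 0.0247), and Runx1, a blood transcription factor gene, by -15.52 (adjusted p = 0.0404). Tat and Runx1 lost the call with each of the 4 libraries left out in turn, with adjusted p of up to 0.133 and 0.215. Of 15 housekeeping genes 0 passed by edgeR, with 3 lower at an unadjusted p under 0.05. None of these lists had a member that rose.

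Of 32 genes expressed in differentiated tissues or sperm 8 fell, a share of 25.0%, and 28 were lower in both clones. Over all ends 8.87% fell. The list's median level at t=0 was 67.6%, and among ends between 60% and 80% at t=0 a share of 15.8% fell. These differences were not tested. The list's median change was -8.33 points from a median of 57.1% at day 10. The 8 were Ins1, Mb, Krt14, Krt5, Opn1sw, Cryaa, Tg and Prm2, with changes of -21.30 to -15.81 points. With each of the 4 libraries left out in turn, Krt5 and Tg kept the call in 0 cases, Ins1, Krt14, Opn1sw, Cryaa and Prm2 in 1, and Mb in 2. Mb, the myoglobin gene, went from 32.5% to 20.5% in N5 and from 43.8% to 13.2% in N9 (adjusted p = 0.0102, and 0.12 without N9 at day 10). Of 21 innate immune genes 2 fell. Irf7, a master regulator of interferon genes (7, 141262183 to 141264183), went from 47.3% to 21.1% and from 47.2% to 21.8%, with day 10 and day 25 libraries each nearly equal (adjusted p = 0.00279). WT stood at 47.9% and 50.5%. The window of Irf7 does not hold its start site, and in the window that does the adjusted p was 0.468. Of 26 fibroblast genes, the list kept as a marker of feeder cells, 1 fell, with a median of -3.29 points. It was Lum, which went from 71.05% to 43.0% and from 78.95% to 47.8%, on as few as 19 calls (adjusted p = 0.0453, 0.0513 with a block for clone, and 0.247 without N5 at day 25). Lum stood at 36.7% and 31.6% in WT. Coverage of the first 3000000 bp of chromosome Y, which also moves between the days, was given above with that of the whole chromosome. Its part in these values was not tested.

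Gene families are given beside the 8.87% of all ends that fell. Odorant receptor genes, with a median of 70.2% at day 10, had a median change of -11.4 points, and 79 of 995 fell (7.9%) and 1 rose. The 186 vomeronasal receptor genes had a median change of -12.4 points, and 2 fell (1.1%). Serpins (13 of 60), keratins and their associated proteins (16 of 109), beta-defensins (6 of 42) and cytochrome P450 genes (11 of 90) had median changes of -10.2, -11.0, -12.55 and -9.3 points. Histone genes, with a median day 10 level of 0.64%, changed by -0.28 points and 1 of 62 fell. Of 90 ribosomal protein genes 9 fell (10.0%), with a median of -0.65 points. Members of these families share sequence, so calls at single members can hold reads of their copies.

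The largest falls among ends of at least 20 CpGs were seen in both clones. Misp, which encodes a spindle-positioning actin bundler (10, 79820019 to 79822019), went from 46.7% to 19.3% in N5 and from 61.7% to 26.1% in N9 (adjusted p = 0.00133). Spic, which encodes an Ets-family factor of red pulp macrophages (10, 88682023 to 88684023), went from 49.2% to 24.6% and from 48.7% to 12.2% (adjusted p = 0.00352, and 0.0552 without N9 at day 25). Stn1, which encodes a subunit of the telomere CST complex, went from 69.4% to 45.8% and from 76.7% to 40.9% (adjusted p = 0.00158). Vpreb2, a surrogate light chain gene of B cell precursors, went from 85.85% to 60.6% and from 82.6% to 48.6% (adjusted p = 0.00252, and 0.0514 without N9 at day 25). At all 4 ends the day 10 and day 25 libraries are apart, and WT changed by 1.24 to 9.83 points. The other 6 were Flg, Rab44, Map4, Olfr38, Zbed3 and 2300003K06Rik, with changes of -33.4 to -29.43 points, and each lost its call without at least 1 library. In WT 2300003K06Rik changed by 2.81 points, while the other 5 of these were lower at day 25, by changes of -0.73 (Flg) to -33.26 points (Olfr38). At Olfr38 the WT change was thus larger than the mean change of the clones, -29.79 points. Flg, the filaggrin gene, had the deepest fall on only 32 to 66 calls a library.

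The 3 ends that rose were low at day 10. Ebf2, which encodes a transcription factor of neurons and fat precursors (14, 67232292 to 67234292), went from 1.36% to 3.26% in N5 and from 0.84% to 3.76% in N9 (adjusted p = 0.0415). In WT the level of Ebf2 was 3.1% at day 10 and 5.38% at day 25, a change of 2.29 points against 2.42 in the clones. Olfr1166, an odorant receptor gene with close copies, went from 2.33% to 13.6% and from 2.7% to 19.7% (adjusted p = 0.0317). The WT change at Olfr1166 was 26.4 points, against 14.13 in the clones. Mnat1, which encodes a subunit of the Cdk-activating kinase, went from 0% to 1.66% and from 0.13% to 0.33% (adjusted p = 0.0267). Ebf2 and Olfr1166 lost the call with each of the 4 libraries left out in turn (adjusted p of 0.0636 to 0.24 and of 0.0659 to 0.173), and Mnat1 lost it without N5 or N9 at day 10 or N5 at day 25 (up to 0.447). The window on the start site of Mnat1 changed the other way, as did that of Olfr1166.

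**Figure D5:**
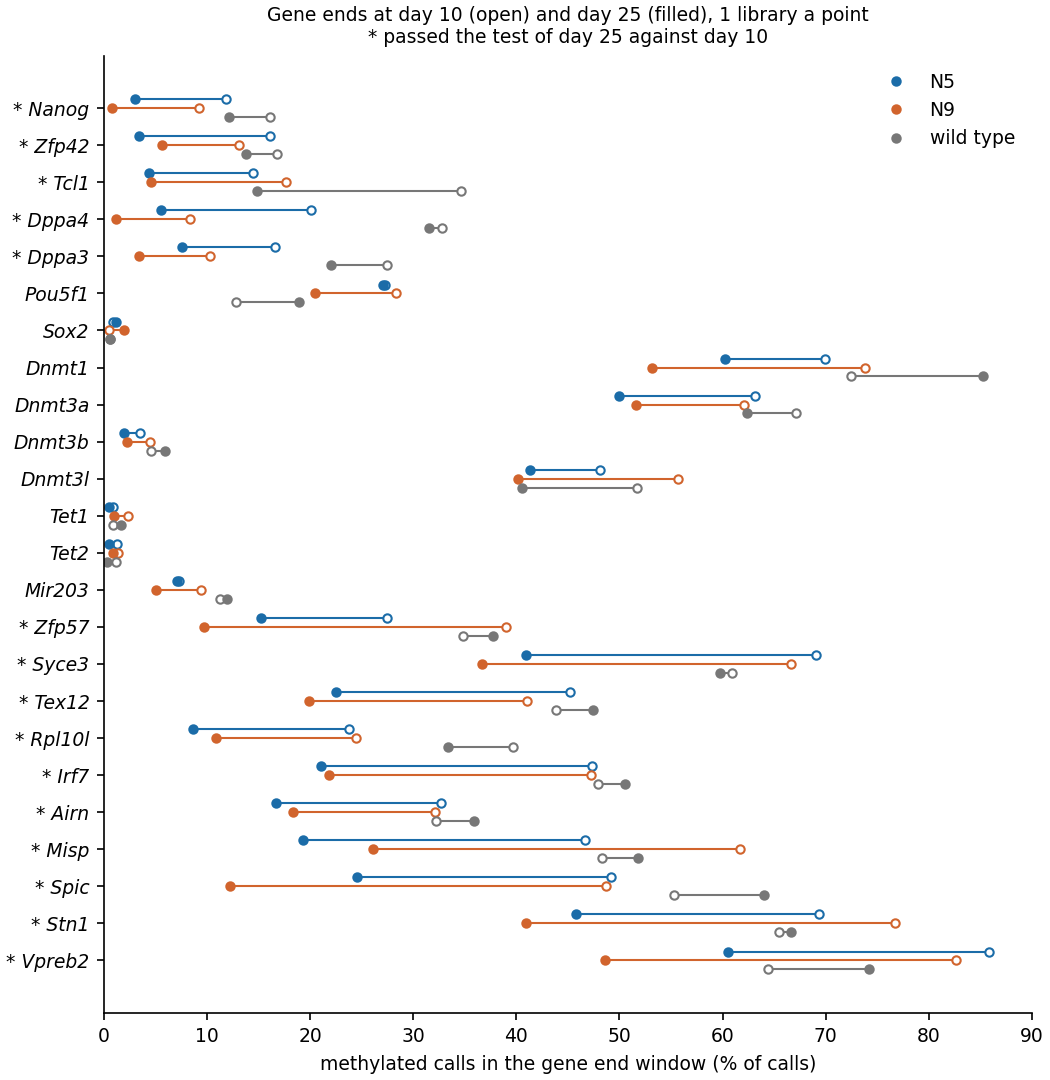
Methylation level of 24 gene ends (percent of calls) at day 10 (open) and day 25 (filled) in N5, N9 and WT, each point 1 library, with an asterisk where day 25 passed against day 10 (edgeR, adjusted p under 0.05). Irf7 shows the 2 clones moving from 47.3% and 47.2% to 21.1% and 21.8%, while Sox2, Tet1 and Tet2 sit near 0.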

How the data were processed

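Oxidative bisulfite libraries of 12 iPS cell and embryoid body samples were analysed from a single table. Per the file headers, each deposited column holds a count per CpG, either of methylated calls or of coverage, and nothing was normalized. Alignment tools and build in the submitters' processing notes are BWA, Picard 1.91 and mm10, with a caller not given in the sources used here. Both WT columns of a stage were summed as lanes of 1 library, because their titles share index and flow cell. All 407620 listed positions inside RefSeq promoter sequences fell on the C of a CG.

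Methylated calls over all calls gave levels. The first 3000000 bp of chromosomes were left out of tiles and gene ends. Gene ends (RefSeq, GRCm38.p6) were kept with 5 or more CpGs and 10 or more calls per library, and tiles of 10000 bp with 30 or more calls. Of these, 20331 ends and 248191 tiles on the autosomes and X were tested in edgeR 4.0.16 by quasi-likelihood, fitting library terms and 8 genotype-by-stage groups, which leaves 4 residual degrees of freedom, and p adjusted by Benjamini and Hochberg over all of them. The common dispersion was 0.024 for ends and 0.00581 for tiles. WT has 1 library per stage, so its spread is taken from the clones. The labels do not say that libraries came from separate cultures, so p-values measure the spread between these libraries. Limma 3.58.1 on logit levels was the main alternative. On simulated data, edgeR recovered 37 of 67 gene ends that had lost 20 points and 4 of 67 that had lost 10, and 60 of 67 and 22 of 67 tiles (a 20683-tile subset). There, few features changed, none of them starting from a low level, and the rest did not move. The data hold a fall across the genome and many low ends, so these shares do not give the recovery in them.

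N5 and N9 pair across stages because each is a clone of its own; the differences between them at day 10 and day 25 correlated at 0.017 over gene ends. Genes named were the 10 largest falls and 10 largest rises among passing ends of at least 20 CpGs with both clones moving the same way, from every list the 4 lowest p, and Mir203, Dnmt1, Dnmt3a, Dnmt3b, Dnmt3l, Uhrf1, Tet1, Tet2, Pou5f1, Sox2, Nanog, Dppa3 and Zfp42; for tiles, the 5 largest each way. Members, the 19 gene lists (491 entries, 489 matched to a symbol) and the tests were chosen with earlier results of these data known. Lists were described by counts and medians. The minimum of 20 CpGs was not asked of list members, such as Nlrp14 with 10 and Pramel6 with 13. Intervals and limits of 3 calls cover counting error only.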

Additional observations from a re-analysis of the deposited data

Results flagged for a closer look

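Values outside the comparison exceeded those of WT in 2 places. Coverage of the first 3000000 bp of chromosome Y over autosomes at day 25 was 0.01295 in N5 and 0.0109 in N9, against 0.00156 in WT. Coverage of chromosome 8 over the other autosomes at day 10 was 1.099 (N5) and 1.35 (N9), and at day 25 it was 1.392 and 1.385, against at most 1.045 in WT at any stage.

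A further set was picked out because the change of the clones differed from that of WT by a test of the difference (edgeR). It comprised 69912 tiles lower and 15 tiles higher in the clones, and the Crnn gene end, which changed by -24.8 points in the clones and by 31.62 in WT on as few as 53 calls. Crnn did not pass on autosomes alone, where 0 ends differed, with 2479 at an unadjusted p under 0.05. With 2 libraries a group, no group was large enough to look for a library far from the others.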

How the results depend on the processing

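The autosomal change kept its direction in every alternative. Under the other ways of counting CpGs it was -12.297 to -11.301 points, moving by less than the SD between clones. The values without N9 and without N5, -11.523 and -13.052, are the change of the clone that remains. With 2 clones they lie within that SD whatever the data, so they are no check of it. The 1734 ends lower at day 25 became 40 by limma, 1051 with a flow cell term beside the replicate block, 464 in windows of 500 bp, 6669 in windows of 2000 bp, 0 by limma after centring, which changes both the test and the scale (776 at an unadjusted p under 0.05) and 146 to 921 with a library left out, where the lone library of a day is assumed to vary like the other groups. With the replicate block alone, N5 and N9 being paired, 1775 ends were lower and 4 higher, 1673 of them shared with the 1734, and of the 50 named ends that passed only Lum lost its call. The block changed no other call of a named end. The 3 higher ends became 1 with the flow cell term, 1 in windows of 2000 bp, 1 around start sites, 1 by centred limma and 0 to 1 with a library left out. The end that differed from WT became 0 by limma (2177 at an unadjusted p under 0.05), 0 on autosomes alone (2479), 0 without chromosome 8 (2348), 0 after limma centring (1113), 2 with the block, 33 with the flow cell term, 2 with 30 calls, 17 and 7 in windows of 500 and 2000 bp, 7 around start sites and 0 to 11 with a library left out.

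For tiles, 50 kb tiles gave 47243 of 47510 lower, 1 higher and 42317 of 47510 that differed from WT, a larger share than the 69912 lower and 15 higher of 233969 tiles of 10 kb. The 6 higher tiles became 1 with 100 calls and 8 to 13 with a library left out. The tiles that differed from WT became 0 by limma (97864 at an unadjusted p under 0.05) and 28616 to 62863 with a library left out. The log2 odds of Olfr1166, positive in its gene end, were -0.539 in windows of 2000 bp and -3.259 around its start site, and those of Mnat1 -0.474 around its start site. Without its deepest tile, a choice made after seeing the data, the chromosome 17 bin changed by -8.5 points in N5. The causes were not tested. Tiles hold a median of 394 to 601 calls in the 4 libraries. The part of depth in which single ends and shallow tiles passed was not tested either.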
